A study of Mus musculus with 6 samples.

Results

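The 10 genes described here are feedback inhibitors and transcriptional outputs of the ERK pathway. They are the MAP kinase phosphatases *Dusp4*, *Dusp5* and *Dusp6*, the Sprouty genes *Spry1*, *Spry2* and *Spry4*, the Sprouty-related genes *Spred1* and *Spred2*, and the PEA3-type ETS transcription factors *Etv4* and *Etv5*. They were chosen by gene name for their roles, with earlier results of these data known. All 10 were found among the 20788 genes listed in at least 1 library.

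The expression of these genes was compared between Tyr-H cells and Tyr-L cells, which are subclones of the mouse melanoma line B16 (C57BL/6 strain) with high and low tyrosinase activity. Both were grown in low-glucose DMEM with serum, no treatment is named, and 3 RNA-seq libraries were made of each. The study grew subclones from single cells. Whether the 3 libraries of a subclone type stand for different cultures or for 1 clone is not stated. The p-values below therefore measure the spread between these libraries, which may be technical. The comparison asks whether transcripts that follow ERK signaling differ between the subclones. No phosphorylated ERK was measured in these data.

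ERK is the last kinase of the cascade that runs from receptor tyrosine kinases through RAS, RAF and MEK, a cascade that is active in most melanomas. Active ERK induces the genes of its own inhibitors: dual-specificity phosphatases remove the activating phosphates from MAP kinases, Sprouty proteins act between the receptor and RAF, and Spred proteins bring the RAS inactivator neurofibromin to the membrane. *Etv4* and *Etv5* are transcribed when ERK relieves the repressor Capicua, and together with the inhibitors their transcripts are commonly read as the output of the pathway.

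Values were FPKM as deposited (fragments scaled to transcript length and to the fragments mapped in the library). They are set per length, so that levels of different genes can be compared within a library, while differences between libraries depend on the scaling described below. Of all genes, 14336 averaging 0.1 FPKM or more entered a limma fit of log2(FPKM + 0.1), Tyr-H over Tyr-L, so that fold changes of genes near 0.1 FPKM are understated. A gene is said to have risen or fallen when its Benjamini-Hochberg adjusted p over all tested genes was at most 0.05, and is called when its log2 fold change was also at least 1 in size. Libraries listed 16813 to 17413 genes, and the depth estimated from the steps of low values was about 18900000 to 24300000 fragments. Genes differed by a median of 0.0953 to 0.114 (absolute log2) between libraries of a group and of 0.315 to 0.371 between groups. *Tyr*, the gene of tyrosinase, had 10.7, 9.52 and 9.8 FPKM across Tyr-L libraries and 23.8, 20.6 and 19.7 FPKM across Tyr-H libraries, in the direction of the labels. All 7 melanocyte markers were expressed, and 6 of them (*Mitf*, *Pmel*, *Dct*, *Sox10*, *Mlana* and *Tyrp1*) fell (4 with median ratio scaling, under which *Mlana* and *Tyrp1* did not pass), with a log2 fold change of -1.85 for *Mitf*, the master transcription factor of melanocytes. The sum of the 7 was 7340 to 7660 FPKM in Tyr-L libraries and 5440 to 5960 FPKM in Tyr-H libraries, and its part in the values below was not tested. For protein, the paper reports more tyrosinase, TYRP1 and TYRP2 (the product of *Dct*) in Tyr-H cells and no difference in MITF. The falls in RNA of *Tyrp1*, *Dct* and *Mitf* thus differ from its protein results. The leukocyte genes *Ptprc*, *Itgam* and *Cd3e* and the endothelial genes *Cdh5* and *Kdr* were listed in no library. *Cd68* carried nearly all of the leukocyte sum of 3.06 to 3.94 FPKM in Tyr-L and 4.0 to 4.45 FPKM in Tyr-H. The 4 fibroblast markers summed to 0.928 to 1.03 and 0.929 to 1.18 FPKM, the 4 epithelial markers to at most 0.269 FPKM, and the endothelial gene *Pecam1* had at most 0.054 FPKM. In bulk RNA, fewer cells that express a gene and less of its RNA per cell cannot be told apart.

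The 10 genes did not move together. In Tyr-H cells 4 of them rose (*Dusp5*, *Spry2*, *Etv4* and *Etv5*), 4 fell (*Dusp4*, *Spry1*, *Spred1* and *Spred2*), and *Dusp6* and *Spry4* did not pass the test. Over all tested genes 17.9% rose, 39.9% fell and 57.8% passed in either direction, so 8 of 10 genes passing has to be read against a comparison in which most genes passed. The members called were *Etv4* and *Dusp5* among the higher (2.96% of all tested genes) and *Spry1* among the lower (5.78% of all tested genes, 8.75% in either direction). The median log2 fold change was 0.02 over the 10 genes and -0.15 over all tested genes, and the median of its absolute size was 0.58 against 0.32. Tyr-H and Tyr-L libraries did not overlap in the 8 genes that passed, 4 of which were higher and 4 lower in Tyr-H, where 20.2% and 43.8% of all tested genes (64.0% together) were separated in these directions. Each family except Spred and PEA3 held a gene that rose, a gene that fell and a gene that did not pass.

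**Figure D1:**
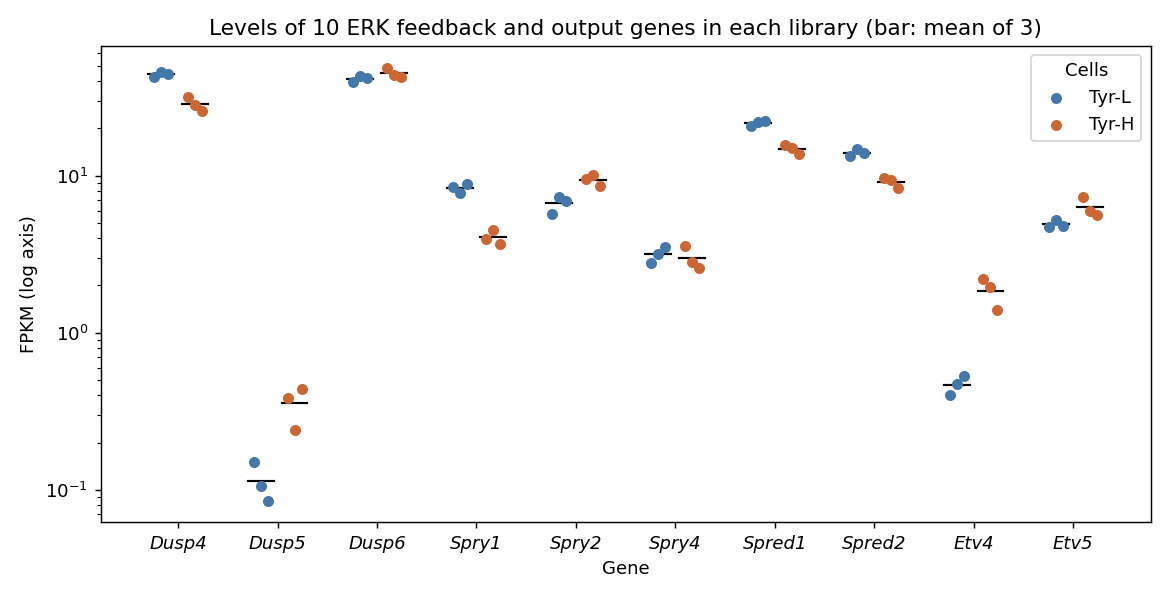
FPKM (log axis) of the 10 genes in each of the 3 Tyr-L (blue) and 3 Tyr-H (orange) libraries, with a bar at each mean. The Tyr-H libraries lie below the Tyr-L libraries for Dusp4, Spry1, Spred1 and Spred2, above them for Dusp5, Spry2, Etv4 and Etv5, and overlap with them for Dusp6 and Spry4.

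*Dusp6* (ENSMUSG00000019960, chromosome 10 of GRCm38 from 99263231 to 99267489, plus strand), the cytoplasmic phosphatase that acts mainly on ERK, was among the most abundant of the 10 genes in both groups. It had 39.5, 43.0 and 41.7 FPKM across Tyr-L libraries and 48.8, 44.0 and 42.4 FPKM across Tyr-H libraries. The groups overlapped, since Tyr-H library 3 lay below Tyr-L library 2. The log2 fold change was 0.12 with a 95% interval from -0.01 to 0.25 (adjusted p = 0.093, limma), which holds a small rise and no fall beyond -0.01. *Dusp6* passed with median ratio scaling of the libraries (0.27, adjusted p = 0.0035, limma), with quantile normalization (0.21, adjusted p = 0.015, limma) and without Tyr-H library 3 (0.16, adjusted p = 0.039, limma).

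*Dusp4* (ENSMUSG00000031530, chromosome 8 from 34807297 to 34819894, plus strand), a nuclear phosphatase of ERK and other MAP kinases, fell in Tyr-H cells. Its level was 42.4, 46.0 and 44.1 FPKM across Tyr-L libraries and 31.7, 28.3 and 25.9 FPKM across Tyr-H libraries. Every Tyr-H library lay below every Tyr-L library, and the mean was 44.1 ± 1.81 FPKM for Tyr-L and 28.6 ± 2.91 FPKM for Tyr-H (mean ± SD of 3 libraries each), 1.54-fold lower. The log2 fold change was -0.63 ± 0.07 (SE, adjusted p = 5.2e-05, limma). It stayed between -0.72 and -0.47 and passed in all 16 alternative fits.

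*Dusp5* (ENSMUSG00000034765, chromosome 19 from 53529109 to 53542431, plus strand), a nuclear phosphatase that acts on ERK, was the least abundant of the 10 genes and rose. It had 0.15, 0.105 and 0.0854 FPKM across Tyr-L libraries, estimated at 7, 6 and 4 fragments. The Tyr-H libraries had 0.384, 0.242 and 0.44 FPKM, estimated at 20, 13 and 21 fragments. All Tyr-H libraries exceeded all Tyr-L libraries, and all 6 lay above the value that 3 fragments would give (0.0499 to 0.0642 FPKM over the libraries). The means were 0.113 ± 0.0329 and 0.355 ± 0.102 FPKM (mean ± SD of 3 libraries each), a ratio of 3.13. The log2 fold change was 1.08 ± 0.29 (SE, 95% interval 0.42 to 1.74, adjusted p = 0.011, limma). The 2-fold threshold was not reached without Tyr-L library 3 (0.98) or without Tyr-H library 3 (0.94), nor with a pseudocount of 1 FPKM (0.28). The gene overlaps AC137853.2 on the opposite strand, which was listed in no library.

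The bases before the start of *Dusp5* are shown because they held the only match among the 7 genes with an entry in the RefSeq promoter table of GRCm38.p6 (all but *Dusp4*, *Spry4* and *Etv4*) to any of the 5 motifs searched. The motifs were the ETS site CCGGAAGT, the AP-1 site TGANTCA, the cyclic AMP response element TGACGTCA, the Capicua sites TGAATGAA and TGAATGGA, and the CArG box of serum response factor (exactly 6 letters, each A or T, between CC and GG), each on both strands of the 250 bases before the RefSeq start. As patterns, the CArG box, TGACGTCA and TGANTCA match the same places on both strands. These were held by 2.88%, 6.75%, 1.55%, 2.07% and 1.47% of all 32851 windows in that order. *Dusp5* has a pair of CArG boxes, in capitals below, which begin at -82 and -72 from the RefSeq start and directly follow each other. A window with at least 2 CArG boxes was found 6 times (0.0183% of windows). The stretch is chr19:53528895-53529108, plus strand, and the 36 bases closest to the RefSeq start were left off because they lie in the annotated transcript.
Dusp5: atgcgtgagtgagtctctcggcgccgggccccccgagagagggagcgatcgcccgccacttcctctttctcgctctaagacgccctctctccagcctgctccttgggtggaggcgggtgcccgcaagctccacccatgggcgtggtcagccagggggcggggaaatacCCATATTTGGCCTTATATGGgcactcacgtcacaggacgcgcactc
An exon of AC137853.2 lies in the same stretch, and a match describes letters and not occupancy of the site.

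*Spry2* and *Spry1* changed in opposite directions. *Spry2* (ENSMUSG00000022114, chromosome 14 from 105891947 to 105896819, minus strand), an inhibitor of signaling from receptors to RAS and RAF, had 5.68, 7.36 and 6.93 FPKM across Tyr-L libraries and 9.52, 10.1 and 8.65 FPKM across Tyr-H libraries. Each Tyr-H library was above each Tyr-L library, and the means were 6.66 ± 0.872 and 9.42 ± 0.722 FPKM (mean ± SD of 3 libraries each), a ratio of 1.41. *Spry2* rose with a log2 fold change of 0.50 ± 0.10 (SE, adjusted p = 0.0023, limma), and it passed in all 16 alternative fits with values from 0.39 to 0.67.

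*Spry1* (ENSMUSG00000037211, chromosome 3 from 37639947 to 37644598, plus strand), its paralog in the same family, fell and was called. It had 8.5, 7.72 and 8.86 FPKM across Tyr-L libraries and 3.98, 4.54 and 3.67 FPKM across Tyr-H libraries. The groups were far apart, with means of 8.36 ± 0.578 and 4.06 ± 0.443 FPKM (mean ± SD of 3 libraries each), 2.06-fold lower in Tyr-H. The log2 fold change was -1.03 ± 0.09 (SE, adjusted p = 1.8e-05, limma). It passed in all 16 alternative fits, but lay close to the 2-fold threshold and missed it without Tyr-L library 3 (-0.98), without Tyr-H library 3 (-0.96), with median ratio scaling (-0.87), with quantile normalization (-0.86) and with a pseudocount of 1 FPKM (-0.89). It overlaps Gm42922 on the opposite strand, which had 0.0824 to 0.18 FPKM over the 6 libraries.

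The promoter windows of *Spry1* and *Spry2* are shown because these paralogs moved apart. They are chr3:37639697-37639946 on the plus strand for *Spry1* and chr14:105896820-105897069 on the minus strand for *Spry2*, both from RefSeq (GRCm38.p6) and written in the direction of transcription. No capitals are used, since none of the 5 motifs as spelled out above was found in either window.
Spry1: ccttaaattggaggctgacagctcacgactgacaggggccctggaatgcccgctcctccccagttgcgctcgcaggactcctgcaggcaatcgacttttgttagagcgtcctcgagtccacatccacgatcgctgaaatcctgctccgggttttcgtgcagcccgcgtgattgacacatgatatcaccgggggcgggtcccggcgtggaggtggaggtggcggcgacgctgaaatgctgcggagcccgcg
Spry2: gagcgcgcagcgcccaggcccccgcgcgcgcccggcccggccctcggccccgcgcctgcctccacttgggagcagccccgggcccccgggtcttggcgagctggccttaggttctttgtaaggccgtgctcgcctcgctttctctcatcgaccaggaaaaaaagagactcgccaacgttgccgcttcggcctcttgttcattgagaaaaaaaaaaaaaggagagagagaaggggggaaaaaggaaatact
Both windows had 62.4% G and C with 23 CpG dinucleotides, against a median of 52.4% and 6 over all windows. The 8 windows of the 7 genes ranged from 56.0% to 71.2% G and C and from 12 to 31 CpG dinucleotides. An exon of Gm42922 lies in the *Spry1* window, and no annotated exon lies in the *Spry2* window.

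*Spry4* (ENSMUSG00000024427, chromosome 18 from 38586247 to 38601415, minus strand), a further inhibitor of this family, did not pass the test. It had 2.77, 3.18 and 3.52 FPKM across Tyr-L libraries and 3.58, 2.81 and 2.59 FPKM across Tyr-H libraries. The highest and the lowest library were both Tyr-H, so the groups overlapped over the whole range. The log2 fold change was -0.08 with a 95% interval from -0.39 to 0.23 (adjusted p = 0.64, limma), and its sign turned with median ratio scaling (0.07), with quantile normalization (0.09) and without Tyr-H library 3 (0.01). It overlaps Gm27369 and Gm27804 on the opposite strand, which were listed in no library.

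*Spred1* and *Spred2*, which restrain RAS through neurofibromin, fell together and by like amounts. *Spred1* (ENSMUSG00000027351, chromosome 2 from 117121374 to 117182279, plus strand) had 20.8, 22.1 and 22.2 FPKM across Tyr-L libraries and 15.6, 15.1 and 13.7 FPKM across Tyr-H libraries. *Spred2* (ENSMUSG00000045671, chromosome 11 from 19924375 to 20024026, plus strand) had 13.3, 14.7 and 14.0 FPKM across Tyr-L libraries and 9.64, 9.43 and 8.36 FPKM across Tyr-H libraries. In both genes all Tyr-H libraries lay below all Tyr-L libraries. The mean of *Spred1* was 21.7 ± 0.805 FPKM for Tyr-L and 14.8 ± 0.965 FPKM for Tyr-H (mean ± SD of 3 libraries each), 1.46-fold lower, with a log2 fold change of -0.55 ± 0.06 (SE, adjusted p = 4e-05, limma). The mean of *Spred2* was 14.0 ± 0.686 and 9.14 ± 0.689 FPKM (mean ± SD of 3 libraries each), 1.53-fold lower, with a log2 fold change of -0.61 ± 0.07 (SE, adjusted p = 6e-05, limma). Both passed in all 16 alternative fits, with values from -0.64 to -0.40 for *Spred1* and from -0.70 to -0.46 for *Spred2*. Relative to the median of all tested genes these changes were -0.40 and -0.46.

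*Etv4* (ENSMUSG00000017724, chromosome 11 from 101769742 to 101785371, minus strand), an ETS activator induced by ERK signaling, had the largest log2 fold change of the 10 genes in size. It had 0.401, 0.475 and 0.528 FPKM across Tyr-L libraries and 2.21, 1.95 and 1.39 FPKM across Tyr-H libraries. The lowest Tyr-H library was well above the highest Tyr-L library, and the means were 0.468 ± 0.0639 and 1.85 ± 0.419 FPKM (mean ± SD of 3 libraries each), a ratio of 3.95. The estimated fragments were 19 to 28 in Tyr-L and 65 to 112 in Tyr-H libraries. *Etv4* rose with a log2 fold change of 1.76 ± 0.20 (SE, adjusted p = 6.6e-05, limma), and 99.1% of all tested genes had a lower fold change. It passed in all 16 alternative fits and missed the 2-fold threshold with a pseudocount of 1 FPKM (0.95).

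*Etv5* (ENSMUSG00000013089, chromosome 16 from 22381309 to 22439719, minus strand), the related activator, rose by less. It had 4.74, 5.25 and 4.79 FPKM across Tyr-L libraries and 7.31, 5.96 and 5.61 FPKM across Tyr-H libraries. The groups did not overlap, although the gap between Tyr-L library 2 and Tyr-H library 3 was small. The means were 4.93 ± 0.28 and 6.29 ± 0.894 FPKM (mean ± SD of 3 libraries each), a ratio of 1.28, and the log2 fold change was 0.34 ± 0.10 (SE, adjusted p = 0.019, limma). *Etv5* did not pass when each library was rescaled to the same total FPKM (0.25, adjusted p = 0.078, limma), nor without Tyr-L library 1 (0.31), Tyr-L library 3 (0.32) or Tyr-H library 1 (0.23), with adjusted p = 0.058, 0.057 and 0.054 in that order (limma).

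**Figure D2:**
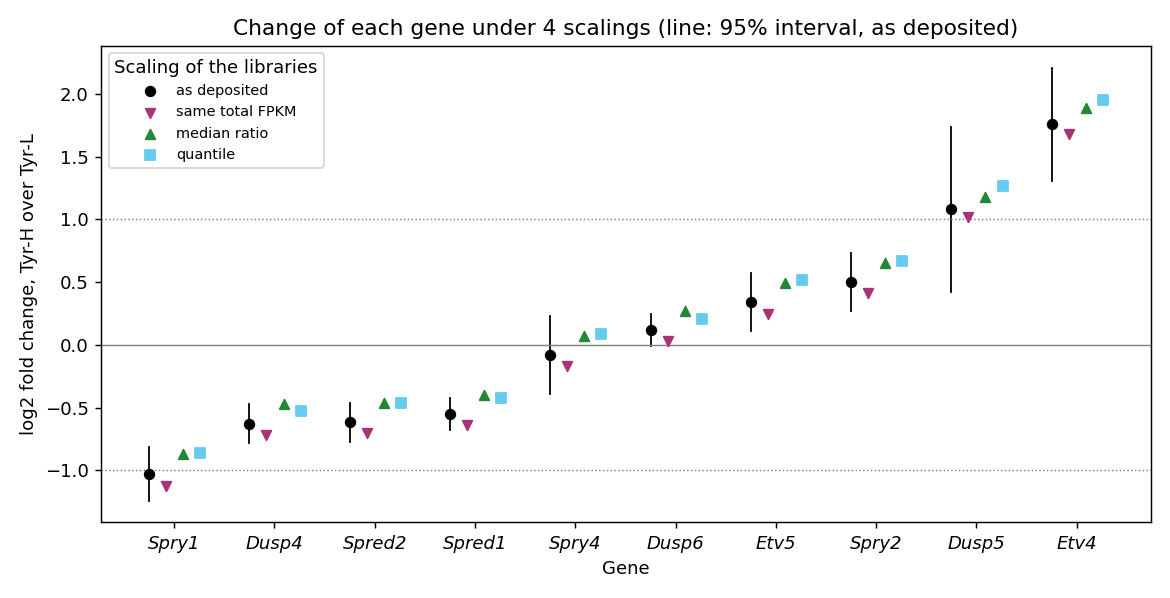
log2 fold change (Tyr-H over Tyr-L) of each gene with the libraries as deposited (black, with the 95% interval of limma), rescaled to the same total FPKM, scaled by median ratio, and quantile normalized. Dotted lines mark 2-fold changes. The order of the genes ran from Spry1 (-1.03) to Etv4 (1.76), and Spry4 and Dusp6 lay nearest to 0 under each scaling.

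The scaling of the libraries moved the median log2 change over all tested genes from -0.15 as deposited to -0.24 with equal totals and to -0.01 with median ratio scaling or quantile normalization. Over all tested genes 3994 rose and 3865 fell with median ratio scaling, against 2570 and 5722 as deposited. Among the 10 genes, 4 fell under each of these scalings, while 3 rose with equal totals and 5 with the others. Taken relative to the median of all tested genes, the log2 fold changes were 1.91 for *Etv4*, 1.23 for *Dusp5*, 0.65 for *Spry2*, 0.49 for *Etv5*, 0.27 for *Dusp6* and 0.07 for *Spry4*. On the same relative scale *Spry1* was at -0.87 and *Dusp4* at -0.47.

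The order of the levels in FPKM changed between the groups. In Tyr-L cells *Dusp4* and *Dusp6* led with overlapping ranges, followed by *Spred1*, *Spred2*, *Spry1*, *Spry2*, *Etv5*, *Spry4*, *Etv4* and *Dusp5*, none of which overlapped with its neighbor. In Tyr-H cells *Dusp6* led alone, ahead of *Dusp4* and *Spred1*. *Spry2* followed, with a range that overlapped that of *Spred2*, then *Etv5*, *Spry1*, *Spry4*, *Etv4* and *Dusp5*, without overlap between neighbors. *Spry1* was thus above *Spry2* and *Etv5* in Tyr-L cells and below both in Tyr-H cells.

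The sum of a family weighs its abundant genes most. *Dusp4*, *Dusp5* and *Dusp6* summed to 85.6 ± 3.55 FPKM for Tyr-L and 74.1 ± 6.18 FPKM for Tyr-H cells (mean ± SD of 3 libraries each, as for all these sums), of which *Dusp5* made up at most 0.44 FPKM. The Sprouty genes summed to 18.2 ± 1.18 and 16.5 ± 1.37 FPKM with overlapping libraries (up to 19.3 FPKM in Tyr-L, and 17.1, 17.4 and 14.9 FPKM in Tyr-H). The Spred sum was 35.7 ± 1.42 FPKM for Tyr-L and 24.0 ± 1.65 FPKM for Tyr-H. The sum of *Etv4* and *Etv5* was 5.4 ± 0.299 and 8.14 ± 1.27 FPKM. Sums were not tested.

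Ratios of related genes within a library cancel a constant scaling factor of that library, apart from the pseudocount. For 6 pairs set by family, the log2 ratio of (FPKM + 0.1) was compared between the groups by an exact permutation test, two-sided, in which 3 against 3 libraries cannot give a p below 0.1. In all 6 pairs the groups were separated and reached this value (exact permutation p = 0.1, adjusted over the 6 pairs 0.1), so none could pass. Of all tested genes, 64.0% were themselves separated, and the share among ratios of other pairs was not computed. The pairs are not independent, since *Dusp6* and *Spry4* each stand in more than 1 of them. *Dusp4* over *Dusp6* was 0.10, 0.10 and 0.08 across Tyr-L libraries and -0.62, -0.63 and -0.71 across Tyr-H libraries, so *Dusp4* fell relative to *Dusp6*. The small lead of *Dusp4* in Tyr-L depends on the transcript lengths behind the FPKM values, which are not given in the sources. Which of the 2 was more abundant in Tyr-L is therefore uncertain. *Etv4* over *Etv5* had a mean of -3.15 ± 0.17 for Tyr-L and -1.73 ± 0.19 for Tyr-H (mean ± SD of 3 libraries each), a difference of 1.42, which became 0.65 with a pseudocount of 1 FPKM. *Spry1* over *Spry4* differed by -0.94 and *Spry2* over *Spry4* by 0.58. *Dusp5* over *Dusp6* differed by 0.96, and by 0.16 with overlapping groups (exact permutation p = 0.3) with a pseudocount of 1 FPKM. *Spred1* over *Spred2* was 0.63 ± 0.04 for Tyr-L and 0.69 ± 0.02 for Tyr-H (mean ± SD of 3 libraries each), a difference of only 0.06, which became 0.04 with a pseudocount of 1 FPKM and no longer reached the smallest p (exact permutation p = 0.2). The ratio of *Spry2* to *Spry1*, chosen after its values were seen and not tested, was -0.57, -0.07 and -0.35 across Tyr-L libraries and 1.24, 1.13 and 1.21 across Tyr-H libraries.

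**Figure D3:**
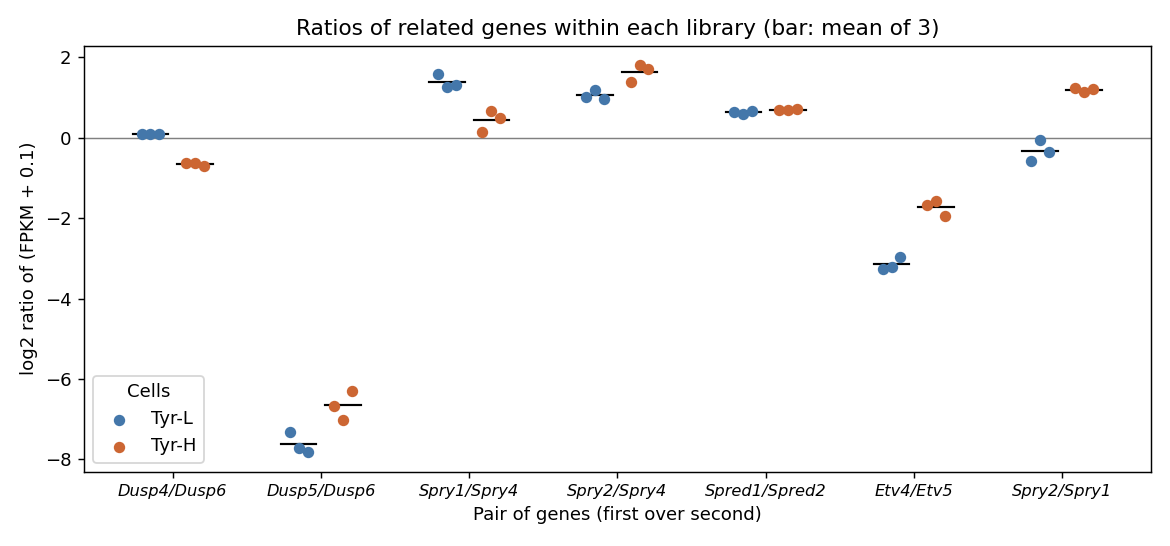
log2 ratio of (FPKM + 0.1) of related genes within each library, Tyr-L blue and Tyr-H orange, with a bar at each mean. The Dusp4/Dusp6 and Spry2/Spry1 ratios changed sign between the groups, and the Spred1/Spred2 ratio differed by 0.06.

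The other genes of the pathway were described from lists made by their textbook roles, also with earlier results of these data known. Of their 69 genes, 66 were listed and 63 tested. Of the 63, 22 rose, 24 fell and 17 did not pass, where 17.9% of all tested genes rose and 39.9% fell, and their median log2 fold change was 0.02, as for the 10 genes. This balance depended on the scaling, with 30 rising and 16 falling under median ratio scaling, 28 and 18 under quantile normalization and 14 and 26 with equal totals. Called were 6 higher and 1 lower, all named below, where 2.96% and 5.78% of all tested genes were called in these directions. Of the remaining Sprouty, Spred and PEA3 genes, *Etv1* and *Spred3* did not pass the test. *Etv1*, the remaining PEA3 factor, had 2.22, 2.24 and 2.29 FPKM across Tyr-L libraries and 2.05, 2.06 and 1.77 FPKM across Tyr-H libraries, with a log2 fold change of -0.19 (95% interval -0.44 to 0.06, adjusted p = 0.17, limma). *Spred3* had a log2 fold change of -0.06 (95% interval -0.47 to 0.35, adjusted p = 0.8, limma), and *Spry3* was listed in no library.

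Of the 7 other MAP kinase phosphatases, 4 rose (*Dusp8*, *Dusp9*, *Dusp10* and *Dusp16*), 2 fell (*Dusp2* and *Dusp7*) and *Dusp1* did not pass (0.16, adjusted p = 0.24, limma). Of all tested genes 17.9% rose and 39.9% fell. *Dusp8*, a phosphatase of JNK and p38, had 2.66, 3.49 and 2.67 FPKM across Tyr-L libraries and 7.08, 8.41 and 8.28 FPKM across Tyr-H libraries, a log2 fold change of 1.41 ± 0.12 (SE, adjusted p = 1.1e-05, limma). *Dusp9*, which acts mainly on ERK, had 0.545, 0.751 and 0.678 FPKM against 1.37, 1.75 and 1.59 FPKM, a log2 fold change of 1.14 ± 0.17 (SE, adjusted p = 0.00036, limma) that became 0.63 with a pseudocount of 1 FPKM. The groups did not overlap in either gene. *Dusp8* overlaps Gm32786 on the opposite strand.

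Counts upstream of ERK are to be read against the 39.9% of all tested genes that fell and the 17.9% that rose. Of 10 adaptors and RAS regulators, 7 fell, 1 rose (*Sos2*, an activator of RAS) and *Grb2* and *Ptpn11* did not pass. The largest change was that of *Gab1*, an adaptor of receptor tyrosine kinases, which fell from 3.22 ± 0.115 to 2.01 ± 0.109 FPKM (mean ± SD of 3 libraries each), a log2 fold change of -0.65 (adjusted p = 0.00039, limma). The list's median was -0.35, and -0.19 with median ratio scaling, where 6 fell and 2 rose. Of 13 genes of the RAS, RAF, MEK and ERK tier, 4 rose, 6 fell and 3 did not pass, and the balance turned to 7 rising and 3 falling with median ratio scaling. *Mras*, a RAS relative that acts with SHOC2 on RAF, had 3.03, 3.51 and 3.25 FPKM across Tyr-L libraries and 8.32, 8.93 and 8.42 FPKM across Tyr-H libraries, a log2 fold change of 1.37 ± 0.08 (SE, adjusted p = 1.5e-06, limma). The groups were widely separated in *Mras*, and the largest changes among the other genes were those of *Ksr1* (-0.93) and *Nras* (-0.70), which both fell.

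Downstream of ERK, 3 of 10 effector kinases and ternary complex factors rose (*Rps6ka1*, *Rps6ka2* and *Srf*) and 4 fell (*Rps6ka3*, *Mknk2*, *Elk3* and *Elk4*), which turned to 4 rising and 3 falling with median ratio scaling or quantile normalization. Of all tested genes 17.9% rose and 39.9% fell as deposited, so 4 of 10 falling was about the share of all genes. *Mknk2*, a kinase that ERK activates to phosphorylate eIF4E, fell from 61.8 ± 2.21 to 32.3 ± 2.0 FPKM (mean ± SD of 3 libraries each), a log2 fold change of -0.93 (adjusted p = 9.4e-07, limma). Among 7 tested immediate-early genes 4 rose (*Ier2*, *Ier3*, *Junb* and *Zfp36*), *Myc* fell, and *Egr1* and *Fos* did not pass, while *Egr2*, *Egr3* and *Fosl1* were listed but too low to test. With median ratio scaling 4 rose and *Myc* no longer passed, and with equal totals 3 rose and 2 fell. *Junb*, an AP-1 subunit, had 4.63, 4.77 and 4.92 FPKM across Tyr-L libraries and 8.38, 9.65 and 11.3 FPKM across Tyr-H libraries, a log2 fold change of 1.01 ± 0.10 (SE, adjusted p = 3.2e-05, limma). The groups did not overlap in *Junb*, but the 2-fold threshold was missed without Tyr-L library 1 (0.99), without Tyr-H library 3 (0.90), with equal totals (0.92) and with a pseudocount of 1 FPKM (0.89). *Junb* overlaps *Prdx2* on the opposite strand.

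Of 8 tested genes of a list of other ERK outputs, 5 rose (*Ccnd1*, *Epha2*, *Kcnn4*, *Lif* and *Plaur*), while *Phlda1*, *Epha4* and *Hbegf* did not pass and *Areg* and *Ereg* were listed in no library. Of all tested genes 17.9% rose and 39.9% fell. *Ccnd1* passed narrowly (0.13, adjusted p = 0.048, limma) with overlapping groups, and with equal totals it did not pass and 4 rose. *Lif*, a cytokine of the interleukin 6 family, had 0.754, 0.582 and 0.867 FPKM across Tyr-L libraries and 3.41, 3.45 and 3.77 FPKM across Tyr-H libraries, a log2 fold change of 2.14 ± 0.15 (SE, adjusted p = 4.3e-06, limma) that became 1.39 with a pseudocount of 1 FPKM. *Epha2*, an ephrin receptor, had 0.505, 0.802 and 0.548 FPKM against 1.48, 1.35 and 1.7 FPKM, a log2 fold change of 1.18 ± 0.19 (SE, adjusted p = 0.00063, limma) that became 0.64 with a pseudocount of 1 FPKM. The groups were separated in both genes. *Phlda1*, by contrast, had 46.4, 50.4 and 49.1 FPKM and 50.5, 48.5 and 48.5 FPKM, a log2 fold change of 0.02 (95% interval -0.07 to 0.11, adjusted p = 0.74, limma).

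Among 6 ETS repressors and genes of the Capicua complex, 4 fell (*Cic*, *Atxn1*, *Atxn1l* and *Etv3*), *Erf* rose and *Etv6* did not pass, while with median ratio scaling or quantile normalization 3 fell and 2 rose. Of all tested genes 39.9% fell and 17.9% rose as deposited. *Atxn1*, a partner of Capicua, had 1.17, 1.3 and 1.5 FPKM across Tyr-L libraries and 0.488, 0.46 and 0.497 FPKM across Tyr-H libraries, a log2 fold change of -1.28 ± 0.17 (SE, adjusted p = 0.00015, limma) that became -0.65 with a pseudocount of 1 FPKM. *Cic*, the gene of Capicua itself, which represses *Etv4* and *Etv5*, had 24.6, 25.7 and 26.6 FPKM across Tyr-L libraries and 18.9, 20.2 and 19.2 FPKM across Tyr-H libraries, a log2 fold change of -0.40 (adjusted p = 7.7e-05, limma). Relative to the median of all tested genes the change of *Cic* was -0.25, and 29.2% of all tested genes had a lower fold change. The groups did not overlap in *Atxn1* or *Cic*. Whether these changes bear on *Etv4* and *Etv5* was not tested. *Atxn1* overlaps *Gmpr* and other genes on the opposite strand.

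**Figure D4:**
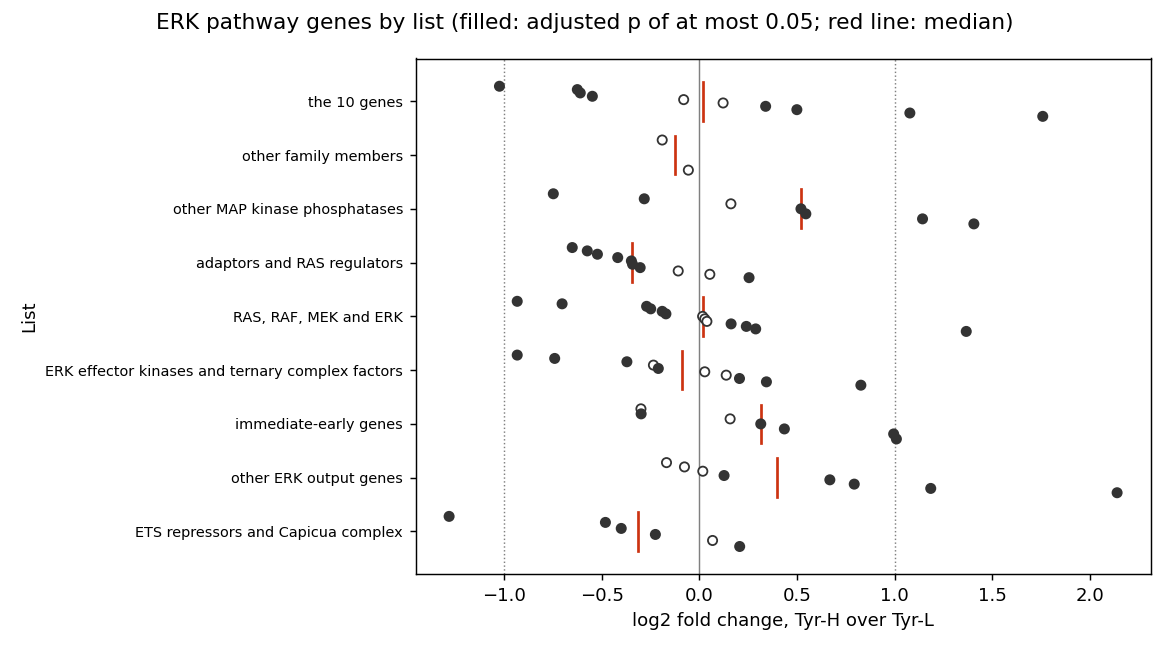
log2 fold change (Tyr-H over Tyr-L) of the tested genes of the ERK pathway, 1 row per list, with genes that passed the test filled and the median of each list as a red line. The medians of the lists ran from -0.35 for adaptors and RAS regulators to 0.52 for other MAP kinase phosphatases, and that of the 10 genes was 0.02.

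Of the genes named in these lists, those outside the called genes and the largest change of a list without any were picked after their values were seen.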

How the data were processed

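RNA of Tyr-H and Tyr-L B16 cells was sequenced in 3 libraries each from mRNA (paired-end, VAHTS mRNA-seq kit). The authors deposited FPKM values per gene for each library, normalized by them for length and depth. The submitters' processing notes name Trimmomatic, HISAT2 and the build GRCm38.p6. The quantifier, its annotation and whether strand was used are not given in the sources used here, so values of overlapping genes are uncertain. A gene not listed in a library was taken as 0 FPKM. Groups and replicate numbers came from the titles and the tyrosinase activity in the labels.

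Genes averaging 0.1 FPKM or more were tested on log2(FPKM + 0.1) with limma 3.58.1 in R 4.3.3 (1 coefficient, eBayes with a variance trend, two-sided, Benjamini-Hochberg over all 14336 tested genes). The procedure was run on simulated data, with changes larger than those of *Dusp5* and *Spry1* and only in genes averaging 1 FPKM or more. That simulation therefore does not cover calls near the 2-fold threshold or in genes as low as *Dusp5*. The thresholds on adjusted p (0.05) and fold change (2) follow the study's methods. Means and SD are of FPKM. Depth was estimated from steps between the lowest FPKM values (transcripts of 1500 nt or longer) and is approximate. Fragments of a gene follow from it and the longest transcript in GENCODE M21, which held 20709 of the identifiers and gave coordinates and overlaps. The floor of 3 fragments covers counting error only. Promoter windows came from the RefSeq table of GRCm38.p6, with entries for 7 of the 10 genes. Other steps used Python 3.11.15 with scipy 1.17.1, pandas 2.3.3, matplotlib 3.10.9 and numpy 2.4.6.

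The 10 genes and the lists were chosen with earlier results of these data known. All 10 genes are named, and from each list the called genes (at most 4 per direction) or, where none was called, the gene with the largest absolute log2 fold change. Alternatives were pseudocounts of 0.01 and 1 FPKM, no filter and a mean of at least 1 FPKM, 3 other scalings, 2 other variance estimates, leaving out single libraries, a block for the replicate number, and no fold-change threshold. The paper's other experiments were not used here, apart from its protein results on melanogenesis genes, which are only cited.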

Additional observations from a re-analysis of the deposited data

How the results depend on the processing

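*Dusp4*, *Spry1*, *Spry2*, *Spred1*, *Spred2* and *Etv4* kept their direction and passed in all 16 alternative fits, and *Dusp5* in all 15 in which it was tested (it fell out with a mean of at least 1 FPKM). *Spry4* turned to 0.07 with median ratio scaling, 0.09 with quantile normalization and 0.01 without Tyr-H library 3, with a range from -0.21 to 0.01 when single libraries were left out. Of the 10 genes, 3 were called as reported, 0 with a pseudocount of 1 FPKM (which shrinks fold changes of low genes, with 8 still passing the limma test), 8 without the fold-change threshold, and 1 to 3 with each library left out, the lowest without Tyr-L library 3 or Tyr-H library 3. Of the other pathway genes, 7 were called as reported, 3 with a pseudocount of 1 FPKM and 46 without the fold-change threshold, and 14 rose and 26 fell with equal totals, 30 and 16 with median ratio scaling and 28 and 18 with quantile normalization, instead of 22 and 24. Over all tested genes 1254 were called, 388 with a pseudocount of 1 FPKM, 640 among genes averaging 1 FPKM or more and 8292 without the fold-change threshold. With median ratio scaling 3994 rose and 3865 fell, and with quantile normalization 3730 and 3986, instead of 2570 and 5722, so the share of all genes that rose or fell became about even. Of called genes 33.9% were higher in Tyr-H, 26.1% with equal totals, 48.4% with median ratio scaling, 55.2% with quantile normalization and 47.7% with a pseudocount of 1 FPKM. The cause of these shifts was not tested beyond the scaling itself.

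Libraries with the same replicate number did not deviate together (correlations of 0.022, 0.013 and -0.083), so the numbers do not pair them. With the replicate block 1258 genes were called, and 8 of the 10 genes passed and 3 were called, as without it. *Dusp5* rests on 4 to 21 estimated fragments a library.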
